A study of Caenorhabditis elegans with 2 samples.

Results

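The regions described here are 619 entries of a ZAG-1 chromatin immunoprecipitation peak list that rank just below the authors' optimal list, which is thresholded on reproducibility, and have their summit at a protein-coding gene start. They were selected on signal rank and position alone: ranks 479 to 2000 of the list called on both replicates pooled, ordered by the authors' signal value, with the summit within 500 bp of an annotated protein-coding transcript start. They make up 619 of the 30000 pooled entries and are called next-tier start regions below. They were set beside 241 entries of ranks 1 to 478 at starts, which belong to the authors' optimal list, beside 6918 entries of ranks 2001 to 30000 at starts, and beside 903 entries of ranks 479 to 2000 away from starts. The animals were whole L1 larvae, the first larval stage, of Caenorhabditis elegans strain OP83, with the genotype unc-119(ed3) III; wgIs83, in which zag-1 was tagged with eGFP. Each sample pooled males and females, and each was a biological replicate of the same and only group, so there were 2 replicates, no second condition, and no control sample was analysed here. Read numbers of the libraries are not given, so depth is unknown. Whole animals were used, so the cells in which a region was bound cannot be told apart. The labels do not say which promoter drove the transgene, and they name the antibody after zag-1 although the description names eGFP.

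ZAG-1 is the nematode member of the ZEB family, transcription factors with zinc finger clusters on either side of a homeodomain. It is known for its part in neuronal differentiation and axon guidance in the worm, and vertebrate ZEB proteins are known to bind E-box sequences of the form CAGGTG or CAGGTA and often to repress. Many worm genes are trans-spliced: the first stretch of the transcript is replaced by a short spliced leader, so the annotated start can lie downstream of the place where transcription began. Neighbouring genes can also share the sequence between them when they are transcribed away from each other.

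The sequences of 4 next-tier start regions show the repeat words that recurred near the summits. Each line gives the 201 bases centred on the summit, in the ce11 build (WBcel235), for the regions of highest pooled signal on chromosomes II to V and X whose window overlapped no annotated untranslated exon and held GAGAGA or CGTCTC on either strand. Capitals mark these words, which read TCTCTC or GAGACG when they lie on the other strand.
Y59A8B.24, plus strand, chrV:17951436-17951636: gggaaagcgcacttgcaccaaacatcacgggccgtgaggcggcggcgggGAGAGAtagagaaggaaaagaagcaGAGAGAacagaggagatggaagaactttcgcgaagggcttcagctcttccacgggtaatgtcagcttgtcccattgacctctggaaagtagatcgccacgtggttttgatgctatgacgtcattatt
ZK112.4, plus strand, chrIII:7729649-7729849: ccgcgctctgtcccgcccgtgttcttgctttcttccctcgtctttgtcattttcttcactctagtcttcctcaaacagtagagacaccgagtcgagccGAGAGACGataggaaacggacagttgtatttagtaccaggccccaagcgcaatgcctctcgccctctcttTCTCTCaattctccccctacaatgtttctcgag
klp-13, plus strand, chrX:5984567-5984767: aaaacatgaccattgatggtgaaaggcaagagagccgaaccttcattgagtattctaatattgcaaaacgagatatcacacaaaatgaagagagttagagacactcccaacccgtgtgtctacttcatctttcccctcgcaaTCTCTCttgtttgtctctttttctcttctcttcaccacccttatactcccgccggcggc
phf-34, plus strand, chrX:9899792-9899992: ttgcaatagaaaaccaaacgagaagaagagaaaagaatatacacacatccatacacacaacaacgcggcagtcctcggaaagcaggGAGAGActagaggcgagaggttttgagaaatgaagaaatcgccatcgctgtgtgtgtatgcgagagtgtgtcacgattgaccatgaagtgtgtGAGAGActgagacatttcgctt

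By the same selection, another 4 are shown because they hold CAGGTG or CAGGTA, the E-box form known for ZEB proteins. Capitals mark this word alone, and CACCTG is CAGGTG read from the other strand.
W03F8.4, plus strand, chrIV:5183769-5183969: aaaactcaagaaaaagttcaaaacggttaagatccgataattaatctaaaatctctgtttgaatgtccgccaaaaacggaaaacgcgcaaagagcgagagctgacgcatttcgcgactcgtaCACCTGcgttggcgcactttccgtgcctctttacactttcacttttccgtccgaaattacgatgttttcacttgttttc
ZK795.3, plus strand, chrIV:12559152-12559352: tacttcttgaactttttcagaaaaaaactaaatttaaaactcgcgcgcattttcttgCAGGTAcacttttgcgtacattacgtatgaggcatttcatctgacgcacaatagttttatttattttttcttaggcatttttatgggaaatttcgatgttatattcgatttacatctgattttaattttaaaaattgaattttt
ZK470.2, plus strand, chrX:4145507-4145707: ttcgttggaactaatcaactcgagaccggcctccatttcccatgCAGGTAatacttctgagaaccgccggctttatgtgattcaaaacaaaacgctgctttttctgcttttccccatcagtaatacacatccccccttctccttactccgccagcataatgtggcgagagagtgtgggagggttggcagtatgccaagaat
sprr-2, plus strand, chrX:14794395-14794595: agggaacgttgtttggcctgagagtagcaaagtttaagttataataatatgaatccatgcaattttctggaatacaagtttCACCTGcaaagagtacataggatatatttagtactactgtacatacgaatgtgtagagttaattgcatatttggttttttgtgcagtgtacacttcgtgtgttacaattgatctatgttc

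The longer word GAGACGCA, which joins the reverse complement of CGTCTC to GACGCA, lay within 100 bp of the summit in 64 of the 619 regions (10.3%). The 8 occurrences in regions of highest pooled signal on chromosomes II to V and X are aligned here, with the word in capitals and 8 bases on each side, to show that the letters next to it also recurred.
dli-1, minus strand, chrIV:13098800-13098823: ttgtcgcgGAGACGCAgacgaact
fic-1, minus strand, chrIV:10937068-10937091: aaataaacGAGACGCAgacaaatg
fipr-17, minus strand, chrIII:11007874-11007897: agagagtgGAGACGCAgacaattc
F44E7.9, minus strand, chrV:5791003-5791026: gaatcgagGAGACGCAacttggag
unc-115, minus strand, chrX:10146837-10146860: cagggcgaGAGACGCAgacacatc
F53C11.5, minus strand, chrV:13789586-13789609: gtatcgtcGAGACGCAgacaaaaa
mak-2, minus strand, chrIV:884919-884942: ctgctgtgGAGACGCAgagaaccc
lgg-2, minus strand, chrIV:10935567-10935590: aaaggtcaGAGACGCAgaggacag
Over the 64 regions, the next base after the word was G in 59 and the next pair of bases was GA in 52 (81.3%, 95% Wilson interval 70.0 to 88.9). The pair followed the word in 72.5% of 40 occurrences in optimal-list start entries, one per window, and in 68.2% of 135 in lower-ranked start entries. These 3 intervals overlapped.

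The next-tier start regions had pooled signal values between 18.15 and 29.58, with a median of 21.6. The value is the authors' own, with a formula that is not given, and it served to select the regions, so it is a description. Optimal-list start entries lay between 29.58 and 179.6 with a median of 38.3, and lower-ranked start entries between 7.445 and 18.14 with a median of 10.1. No step in signal marked either limit. The first region, at Y59A8B.24, had a signal of 29.576 at rank 479, against 29.581 at rank 478 for T13C5.6, the last optimal entry. At the other end gpb-1, a G protein beta subunit gene, had 18.154 at rank 1996 and lin-5, a spindle positioning gene, had 18.151 at rank 1998, against 18.137 for ist-1 at rank 2004. In distance from the start the outermost regions were those of mgl-3 and ensa-1 at 497 bp, and the nearest entry outside was that of oac-10 at 503 bp. There were 10 regions in the last 20 bp inside the limit and 11 entries of the same ranks in the first 20 bp outside it.

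The caller's own −log10 q values were low in these regions. They lay between 0.766 and 1.97 with a median of 1.37, and 0 of 619 exceeded 2, whereas 375 of the 478 optimal entries did. The lowest optimal value was 1.85, and 136 of the next-tier start regions lay above it. The deposited −log10 q thus did not follow signal exactly at the boundary.

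Of the 1522 entries of ranks 479 to 2000, 40.7% (95% Wilson interval 38.2 to 43.2) had the summit at a start. The share was 50.4% (46.0 to 54.9) in the optimal ranks and 24.7% (24.2 to 25.2) in the lower ranks, beside 25.9% of all pooled entries. Intervals here and below cover counting error only, and neighbouring entries can share sequence. With 1 group and no control no test of a difference between rank groups was made, and shares are set side by side.

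Replicate 1 and replicate 2 each have their own list of 30000 entries, and the pooled list was made from the reads of both, so agreement with them is not independent of the pooled rank. Every next-tier start region overlapped an entry of one replicate list or the other by at least 1 bp. Entries of replicate 1 overlapped 534 regions (86.3%) and entries of replicate 2 overlapped 608 (98.2%). Same-rank entries away from starts had nearly the same shares, 86.05% and 98.12%, and 0 of 903 overlapped neither list. Among all pooled entries the shares were 54.1% and 68.1%, and 9.77% overlapped neither. Agreement near the top of both lists was rarer. Only 86 regions (13.9%, 11.4 to 16.8) overlapped the 2000 highest entries of both replicates, against 200 of 241 optimal-list start entries (83.0%), 45 of 6918 lower-ranked start entries (0.651%) and 95 of 903 same-rank entries away from starts (10.5%, 8.68 to 12.7). The share among all pooled entries was 2.27%.

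Most next-tier start regions reached the 2000 highest entries of a single replicate. There were 141 found there in replicate 1 alone and 258 in replicate 2 alone, together 399 (64.5%), while 134 (21.6%) were in the 2000 highest of neither. Same-rank entries away from starts had similar shares, 62.7% in a single replicate and 26.8% in neither. Among all pooled entries the shares were 10.1% and 87.6%. In 91 regions the overlapping replicate 1 entry ranked in the highest 2000 and replicate 2 had no overlapping entry ranked within 5000. The opposite held for 207 regions. Neither count was made for other entries, so they cannot be read as particular to these regions. The median rank of the overlapping entry was 2802 in replicate 1 (n = 534) and 1682 in replicate 2 (n = 608). Both lists feed the pooled rank that selected the regions, so these counts describe the selected band and were not tested.

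**Figure D1:**
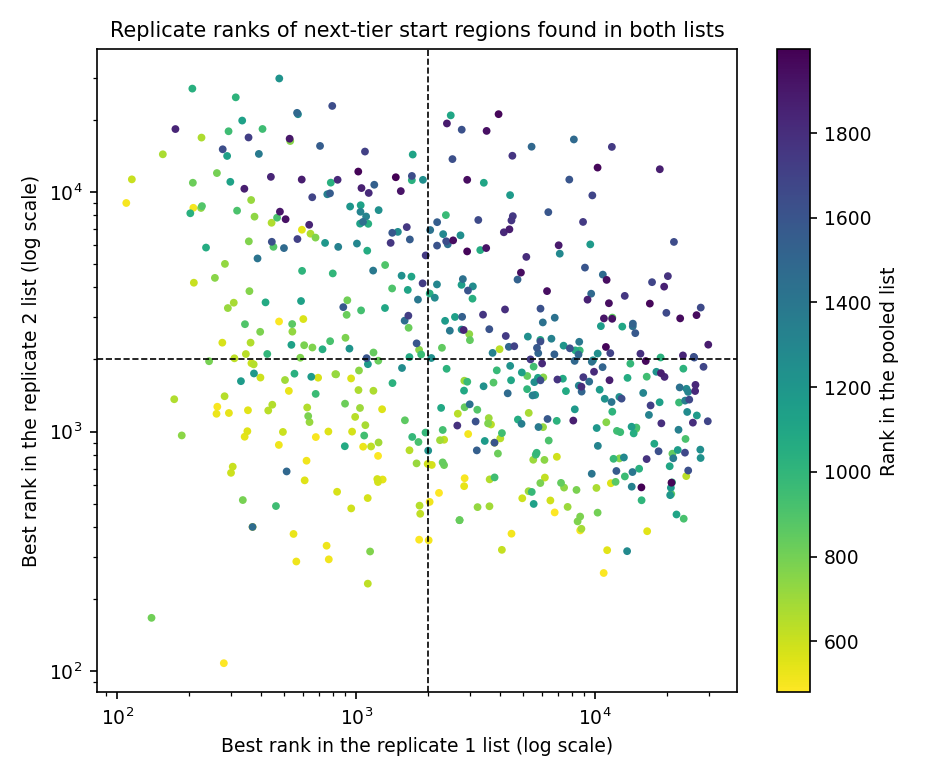
Best rank of the overlapping entry in the replicate 1 list (x axis) and the replicate 2 list (y axis), both log scales, for the 523 next-tier start regions that overlap both lists, coloured by pooled rank. Dashed lines mark rank 2000, and the lower left area holds the 86 regions within it in both.

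Agreement declined along the band. It was 31.3% (25.7 to 37.4) in the 240 regions of ranks 479 to 1000, 5.61% in the 196 of ranks 1001 to 1500, and 0 of the 183 of ranks 1501 to 2000, which allows a share of up to 2.06%. Across the band, 4 regions (0.646%) overlapped the 478 highest entries of both replicate lists. The share was 45.6% in optimal-list start entries, 0.130% in lower-ranked start entries and 0.886% in same-rank entries away from starts. It was 0.790% among all pooled entries, so it was not particular to these regions. The region 413 bp upstream of Y59A8B.24 ranked 279 in replicate 1 with a signal of 14.3 and 108 in replicate 2 with a signal of 32.9. The region 125 bp upstream of tba-2, an alpha tubulin gene, had pooled rank 807, with rank 139 and a signal of 18.7 in replicate 1 and rank 167 and a signal of 29.5 in replicate 2. Both remaining regions lay upstream of pqn-70, which encodes a glutamine and asparagine rich protein, at pooled ranks 498 and 1465. Their summits were 206 bp apart and both overlapped the same replicate entries, of rank 368 in replicate 1 and 400 in replicate 2.

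The 10 regions of highest pooled signal show how unlike the replicates could be. In each pair of ranks from here on, the first is that in replicate 1 and the other that in replicate 2. ZK112.4 ranked 6761 in replicate 1 and 460 in replicate 2, and its summit lay in a coding exon 262 bp downstream of the start. The globin gene glb-18 ranked 2218 and 555. The region of klp-13, a kinesin gene, overlapped no replicate 1 entry and ranked 220 in replicate 2. The PHD finger gene phf-34 ranked 10842 in replicate 1 and 257 in replicate 2. In these cases the replicate 2 rank was the higher. The opposite held for dli-1, a dynein light intermediate chain gene that shares its region with tin-9.2 and exos-4.1, which ranked 475 in replicate 1 and 2882 in replicate 2. It also held for mrps-17, a mitochondrial ribosomal protein gene that shares its region with txdc-9, which ranked 262 and 1270. The secreted metalloprotease gene mig-17 ranked 1233 and 792. The region between natc-1, an N-terminal acetyltransferase subunit gene, and dnj-22 ranked 1832 and 354. The last of the 10 lay between nduf-6, a respiratory complex I gene, and nars-1, an asparaginyl-tRNA synthetase gene, and ranked 2840 and 639. The replicate ranks thus overlapped the 2000 highest of both lists in 4 of these 10 regions.

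Summits lay mainly upstream of the start. Of the 619, 485 (78.4%, 74.9 to 81.4) were upstream of the nearest protein-coding start, against 92.5% (88.5 to 95.2) of optimal-list start entries and 58.1% (57.0 to 59.3) of lower-ranked start entries. Within 1 to 300 bp upstream lay 370 regions (59.8%), against 69.7% of optimal-list and 37.8% of lower-ranked start entries. The upstream share was 86.7% in ranks 479 to 1000, 75.5% in ranks 1001 to 1500 and 70.5% in ranks 1501 to 2000. The median distance to the start was 187 bp in the next-tier start regions, 198 bp in the optimal and 230 bp in the lower start entries.

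**Figure D2:**
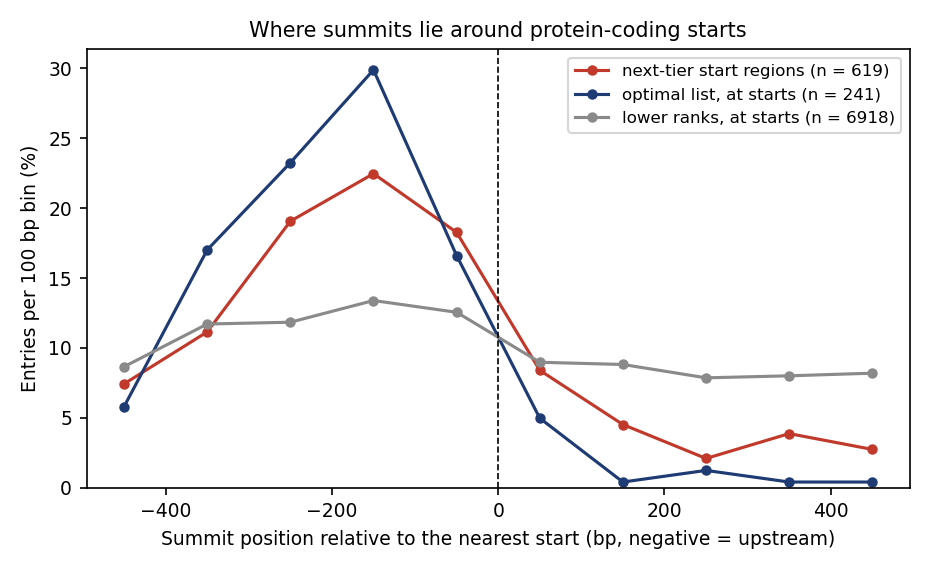
Share of summits (y axis, percent) in 100 bp bins of position relative to the nearest protein-coding start (x axis, bp, negative is upstream) for next-tier, optimal-list and lower-ranked start entries. The next-tier line peaks upstream between the other lines and stays above the optimal line at each point downstream.

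The summit was intergenic in 387 regions (62.5%), in an intron in 109 (17.6%), in a 5′ leader exon in 55 (8.88%) and in a coding exon in 37 (5.98%, 4.37 to 8.13). Coding exons held 0 of 241 optimal-list start summits, which allows a share of up to 1.57%, and 16.7% of lower-ranked ones. Intervals between starts on opposite strands, transcribed away from each other, held 125 regions (20.2%, 17.2 to 23.5), against 27.8% (22.5 to 33.8) of optimal-list start entries and 4.03% (3.59 to 4.52) of lower-ranked ones. Starts of at least 2 genes fell within 500 bp in 143 regions. The X chromosome held 94 regions (15.2%, 12.6 to 18.2), against 220 of the 903 same-rank entries away from starts (24.4%, 21.7 to 27.3), 10.4% of optimal-list start entries, 14.4% of lower-ranked start entries and 19.7% of all pooled entries. Chromosome V held 15.5%, against 23.0% of lower-ranked start entries.

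**Figure D3:**
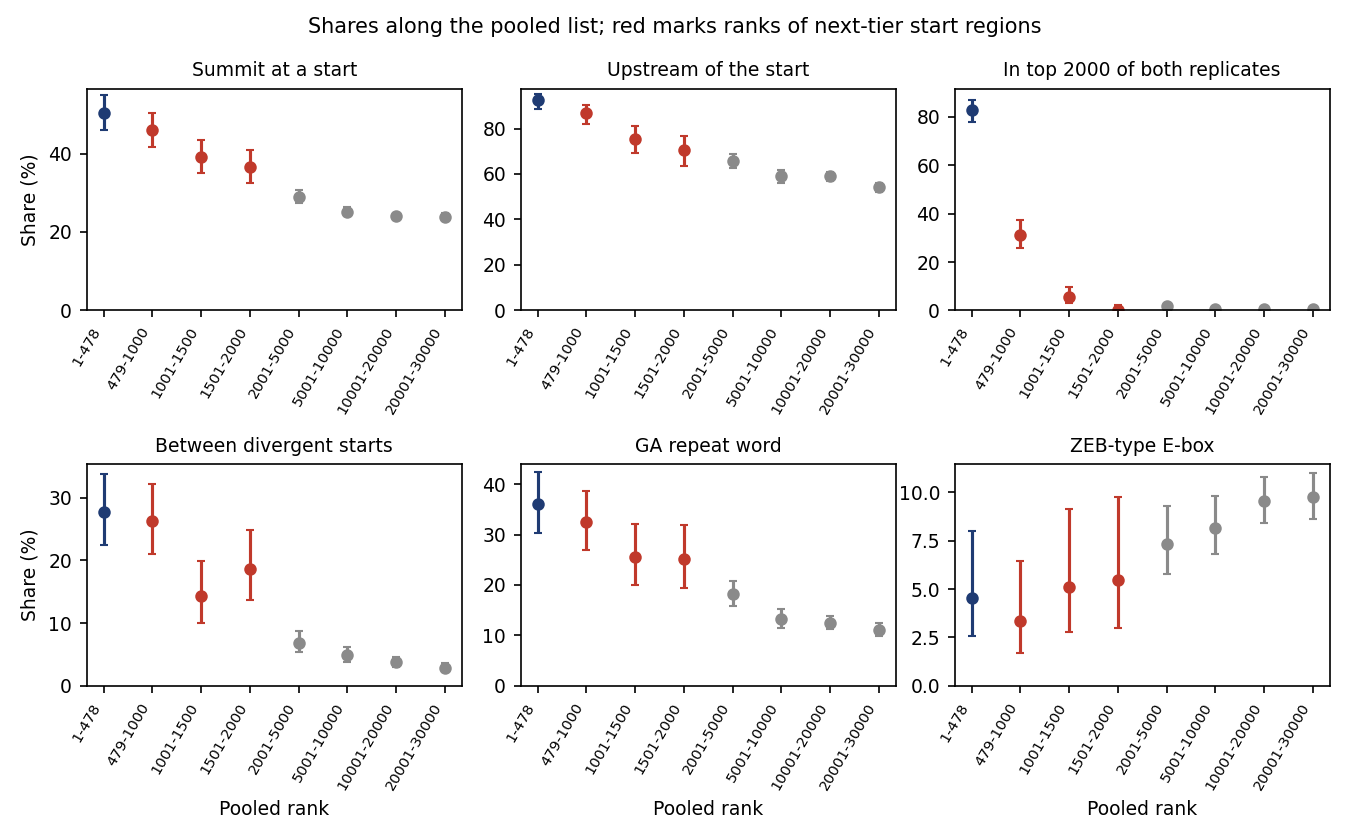
Shares (y axes, percent) with 95% Wilson intervals in 8 bands of pooled rank (x axes), for start entries except in the first panel, which counts all entries. Blue is the optimal list, red the ranks of the next-tier start regions and grey lower ranks. The red points fall between blue and grey for the share upstream and for the GA repeat word, whereas for the ZEB-type E-box they stay near the blue point.

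The GA repeat word GAGAGA was frequent and the ZEB-type E-box was not. GAGAGA, searched for in both orientations up to 100 bp from the summit, was present in 174 of 619 regions (28.1%, 24.7 to 31.8), as in the Y59A8B.24 and phf-34 sequences above. It was present in 36.1% (30.3 to 42.3) of optimal-list start entries, 12.9% (12.1 to 13.7) of lower-ranked start entries, 30.6% (27.6 to 33.6) of same-rank entries away from starts and 12.9% of all pooled entries. CAGGTG or CAGGTA was present in 28 regions (4.52%, 3.15 to 6.46), against 4.56% (2.57 to 7.99) of optimal-list, 9.09% (8.44 to 9.79) of lower-ranked and 5.54% of same-rank entries away from starts. By form, CAGGTG was present in 2.75% and CAGGTA in 1.78% of next-tier start regions, against 4.08% and 5.32% of lower-ranked start entries. The word was thus found in a smaller share of the next-tier start regions than of lower-ranked start entries, with intervals that did not overlap, and the share in all pooled entries was 7.92%. With the same ranks taken from the replicate 2 list alone the share was 6.94% (5.12 to 9.35), and from the replicate 1 list alone 6.76% (4.90 to 9.25), and these intervals overlapped that of the lower-ranked start entries. For summits upstream of the start it was 3.51% (2.20 to 5.54) in next-tier start regions and 7.53% (6.76 to 8.39) in lower-ranked start entries. For downstream summits the values were 8.21% (4.65 to 14.1) and 11.3% (10.2 to 12.5), with overlapping intervals.

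The hexamer CGTCTC was likewise less frequent than in optimal-list start entries and more frequent than in lower-ranked ones, but unlike GAGAGA it was more frequent than in same-rank entries away from starts. It was present in 140 regions (22.6%, 19.5 to 26.1), against 29.5% (24.1 to 35.5) of optimal-list start entries, and these intervals overlapped. The share was 6.55% in lower-ranked start entries and 14.4% (12.3 to 16.8) in same-rank entries away from starts. GACGCA was present in 118 regions (19.1%), against 29.0% of optimal-list start entries, 4.91% of lower-ranked start entries and 11.4% of same-rank entries away from starts. GAGACGCA was present in 10.3% (8.18 to 13.0), against 17.0% of optimal-list and 1.95% of lower-ranked start entries and 7.31% of same-rank entries away from starts. It overlaps both hexamers, so the 3 counts are not separate. The alternating word GCGCGC was present in 5.98%, against 12.4% of optimal-list and 1.81% of lower-ranked start entries and 2.10% of same-rank entries away from starts. GAGAGA and CGTCTC occurred together in 78 regions (12.6%), against 16.2% of optimal-list and 2.38% of lower-ranked start entries, and they can overlap, as in the ZK112.4 sequence.

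Several AT-rich words had the opposite order over windows of all GC contents. The splice acceptor type word TTTCAG was present in 27.8% of next-tier start regions, against 25.3% of optimal-list and 36.5% of lower-ranked start entries. The TATA type word TATAAA was present in 19.1%, against 12.4% of optimal-list and 26.5% of lower-ranked start entries. GATA type words, HGATAR with H for A, C or T and R for A or G, were present in 44.4% (40.6 to 48.4), against 30.7% of optimal-list start entries. The share was 46.1% (45.0 to 47.3) in lower-ranked start entries, an interval that overlapped that of the next-tier start regions. CACGTG, another E-box, was present in 4.04% (2.75 to 5.89), against 3.73% (1.98 to 6.94) of optimal-list and 2.79% (2.43 to 3.21) of lower-ranked start entries, with overlapping intervals. CAGCTG was present in 5.49% of next-tier start regions, 5.81% of optimal-list and 3.45% of lower-ranked start entries. CATATG was present in 3.39%, against 1.24% of optimal-list and 3.58% of lower-ranked ones. The homeodomain core TAATTA was present in 9.85%, against 5.81% of optimal-list and 11.98% of lower-ranked ones, and the bZIP type word TGACTCA in 2.10%, against 2.07% and 2.20%. The run of T letters of length 8 was present in 21.3%, against 13.3% of optimal-list and 25.3% of lower-ranked ones, and TGATAA in 16.0%, against 7.88% and 20.2%. CCGCCC was present in 5.01%, against 7.47% of optimal-list and 2.54% of lower-ranked ones.

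**Figure D4:**
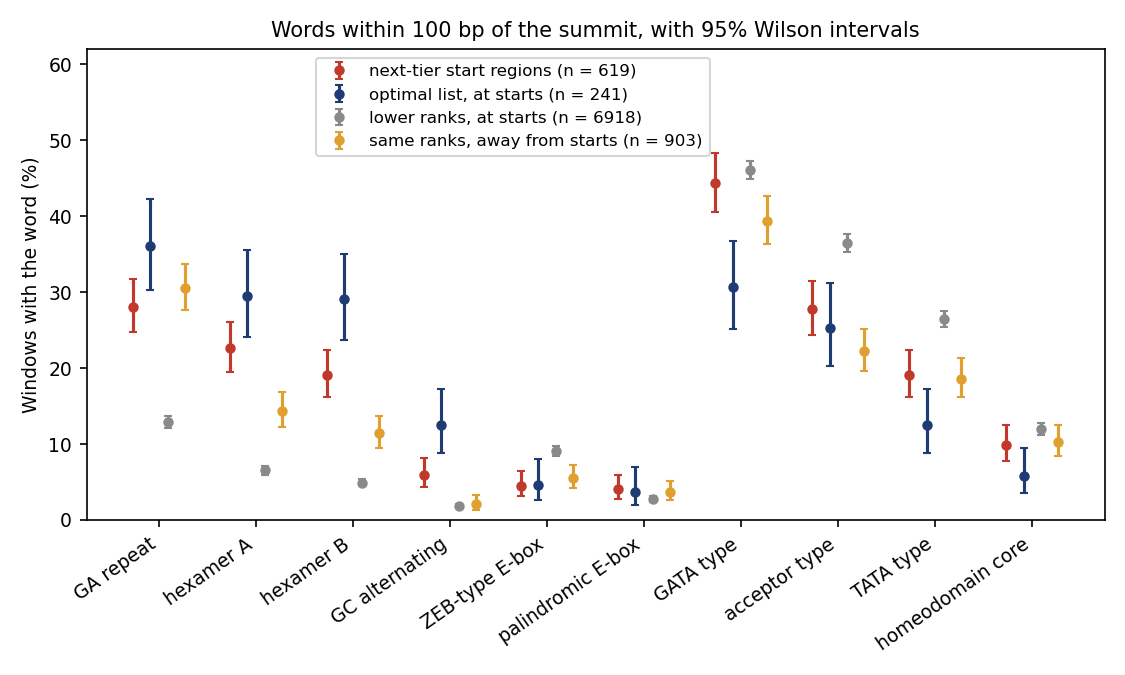
Share of 201 bp windows (y axis, percent) that hold each word on either strand, with 95% Wilson intervals, in next-tier start regions, optimal-list start entries, lower-ranked start entries and same-rank entries away from starts. Hexamer A is CGTCTC and hexamer B is GACGCA. The GA repeat reaches 28.1% in next-tier start regions and 12.9% in lower-ranked start entries, and the ZEB-type E-box 4.52% and 9.09%.

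Base composition moved with these words. The windows had a mean GC content of 37.4% (SD 7.35), against 42.2% in optimal-list start entries, 33.4% in lower-ranked start entries and 36.3% in same-rank entries away from starts. GAGAGA was present in 12.5% of the 232 next-tier start regions of GC content under 35%, against 8.87% of lower-ranked start entries of the same GC range. In windows of GC content from 35% to 40% it was present in 26.3% of 190 against 15.9%, and in those of 40% or more in 48.2% of 197 against 26.7%. CAGGTG or CAGGTA was present in 5.17%, 4.74% and 3.55% of next-tier start regions from the lowest to the highest of these GC ranges, against 8.24%, 10.9% and 10.2% of lower-ranked start entries. Between next-tier and lower-ranked start entries the order of the shares was the same in all 3 GC ranges for both words. In the lowest range the intervals overlapped, 8.85 to 17.4 against 8.07 to 9.74 for GAGAGA. For CAGGTG or CAGGTA they were 2.98 to 8.82 against 7.47 to 9.09. In the other ranges they did not overlap. The order was not the same in all ranges beside optimal-list start entries. Of these, 8 of 32, 24.2% of 66 and 44.1% of 143 held GAGAGA from the lowest to the highest range. CAGGTG or CAGGTA was held by 3.12%, 3.03% and 5.59%. The run of T letters changed order between ranges. It was present in 28.0%, 22.1% and 12.7% of next-tier start regions, against 31.7%, 16.4% and 9.39% of lower-ranked start entries. So did GATA type words, with 53.0%, 40.5% and 38.1% against 48.2%, 44.0% and 39.7%. TTTCAG kept its order, with 37.9%, 24.7% and 18.8% against 38.8%, 35.7% and 26.9%. CGTCTC was present in 6.90%, 25.8% and 38.1% of next-tier start regions, against 3.35%, 8.90% and 17.7% of lower-ranked start entries. In optimal-list start entries it was present in 2 of 32, 16.7% of 66 and 40.6% of 143. The order beside optimal-list start entries thus changed between ranges.

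Shares of the words were also set beside replicate support. GAGAGA was present in 36.1% (26.7 to 46.6) of the 86 regions within the 2000 highest entries of both replicates, in 28.8% of the 399 in 1 replicate and in 20.9% (14.9 to 28.5) of the 134 in neither, and the first and last intervals overlapped. CGTCTC was present in 23.3%, 25.6% and 13.4% of these sets and GAGACGCA in 9.30%, 12.5% and 4.48%, highest in the regions of 1 replicate. CAGGTG or CAGGTA was present in 3.49%, 3.76% and 7.46% of these sets, with overlapping intervals. Mean GC content was 39.9%, 37.5% and 35.6%. The share of summits upstream of the start was 86.0%, 80.5% and 67.2%.

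Distances from the summit were taken to the nearest copy of a word, and GAGAGA occurred in both orientations. With several copies in a window, the nearest lies closer by construction. The GAGAGA nearest to the summit was a median of 35.5 bp away, and in 109 of the 174 regions with the word it lay within 50 bp. The word was on the strand of the nearest gene alone in 61 regions, on the other strand alone in 99 and on both in 14. CAGGTG or CAGGTA lay a median of 50.5 bp from the summit and within 50 bp in 14 of 28 regions, an even split of a window of 100 bp on each side. Among those 28, 17 were upstream of the start, 4 also held GAGAGA and 0 held GAGACGCA. In optimal-list start entries the median distances were 27.5 bp for GAGAGA and 34.5 bp for CAGGTG or CAGGTA, the latter in 11 entries. Whether the words differed in position was not tested.

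The 4 regions of highest pooled signal with the E-box had mixed replicate support. W03F8.4 ranked 764 in replicate 1 and 1001 in replicate 2. C03H5.3 ranked 375 and 7892, with the summit 5 bp downstream of the start. The region in an intron of athp-1, a gene for an AT hook and PHD finger protein, ranked 1236 and 1977. The region between ZK795.3 and ZK795.2 overlapped no replicate 1 entry and ranked 742 in replicate 2. Of these 4 regions, W03F8.4 and athp-1 were within the 2000 highest entries of both replicates.

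The regions lay at starts of 754 of 19973 protein-coding genes, which is 3.78% of these genes, and optimal-list entries lay at starts of 315 (1.58%). Among the 7057 genes with any pooled entry at a start, 10.7% had a next-tier start region. Of the 754 genes, 8 also had an optimal-list entry at a start, beside 1.58% of all protein-coding genes. This overlap was not tested. A region with several starts in reach was counted for each gene: 476 regions had 1 gene, 138 had 2 and 5 had 3 or more. Neither zag-1 nor unc-119 had a pooled entry of any rank within 500 bp of a start. Gene lists were read against the 3.78% of all protein-coding genes, as counts without a test, and the lists were written with earlier results of these data known.

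Genes of the translation machinery had next-tier start regions at larger shares than the 3.78% of all genes. Cytosolic ribosomal proteins had one at 17 of 82 genes (20.7%, 13.4 to 30.7), and 30 others of the list had an optimal-list entry, so 47 of 82 had either. The count of 17 was 11 with the replicate 1 list in place of the pooled list, 11 when only the gene of the nearest start was counted, and 5 with a window of 250 bp. Of the 17, 14 were within rank 1000. The large subunit gene rpl-6 had pooled rank 505, with rank 4460 in replicate 1 and 375 in replicate 2. Its neighbours in rank were rpl-41.2, which overlapped no replicate 1 entry and ranked 563 in replicate 2, and rps-0, a small subunit gene, which ranked 304 and 714. For rpl-21 the ranks were 6152 and 643. Of these 4 regions only that of rps-0 was within the 2000 highest entries of both replicates. Its summit lay 361 bp from the start of rps-0 and 12 bp from that of rbg-3. Translation factors had a next-tier start region at 8 of 50 genes (16.0%). Among them eef-2, the translocating elongation factor, ranked 767 in replicate 1 and 293 in replicate 2, and eif-2Bbeta, a subunit of the initiation factor exchange complex, ranked 751 and 334. Both were within the 2000 highest of both replicates, as was eif-3.E at ranks 1026 and 1799, while the release factor gene erfa-1 ranked 4744 and 1123.

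Smaller counts were found for the other translation lists. Mitochondrial ribosomal proteins had next-tier start regions at 6 of 70 genes (8.57%), including mrps-17, mrpl-12, mrps-16 and mrpl-55. Aminoacyl-tRNA synthetases had them at 2 of 32, nars-1 and kars-1, and ribosome biogenesis factors at 3 of 28, lpd-6, lpd-7 and nol-14. The intervals of these 3 percentages spanned wide ranges, 3.99 to 17.5 for the first, 1.73 to 20.2 for the next and 3.71 to 27.2 for the last.

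RNA processing and nuclear transport genes formed the next group. Splicing factors and RNA helicases had a next-tier start region at 16 of 84 genes (19.0%, 12.1 to 28.7) and an optimal-list entry at 4. The hnRNP F homologue gene hrpf-1 ranked 951 in replicate 1 and 1667 in replicate 2, the SF3b subunit gene sftb-6 ranked 2240 and 921, the U1-associated factor gene prp-40 ranked 1787 and 737, and the hnRNP A gene hrpa-1 ranked 1142 and 316. Of these regions, 3 were within the 2000 highest entries of both replicates. Nuclear pore and transport genes had a next-tier start region at 9 of 43 (20.9%, 11.4 to 35.2) and an optimal-list entry at 3. Among the 21 genes of that list with any pooled entry at a start, the 9 made up 42.9%, beside 10.7% of all genes with such an entry. This was the largest such share of the 28 lists. It was 32.7% for splicing factors and RNA helicases, 30.8% for chaperones, 26.7% for the proteasome list and 25.8% for translation factors. Lower shares included 24.3% for cytosolic ribosomal proteins, 17.3% for membrane trafficking and 16.2% for mitochondrial ribosomal proteins. The neuronal lists spread widely, with 26.7% for synaptic, vesicle and axonal transport genes, 16.7% for ciliary genes and 12.9% for axon guidance. For neuropeptides and insulin-like genes the share was 5.26%, and for neuronal receptors and ion channels 2.97%. Not all of the 28 lists are given here. The 9 nuclear pore and transport genes included imb-1, the importin beta gene, with ranks 619 and 756, the nucleoporin gene npp-3 with ranks 1839 and 491, imb-3, another importin gene, with ranks 583 and 2034, and npp-20, the SEC13 homologue gene that the trafficking list also holds, with ranks 4065 and 321.

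**Figure D5:**
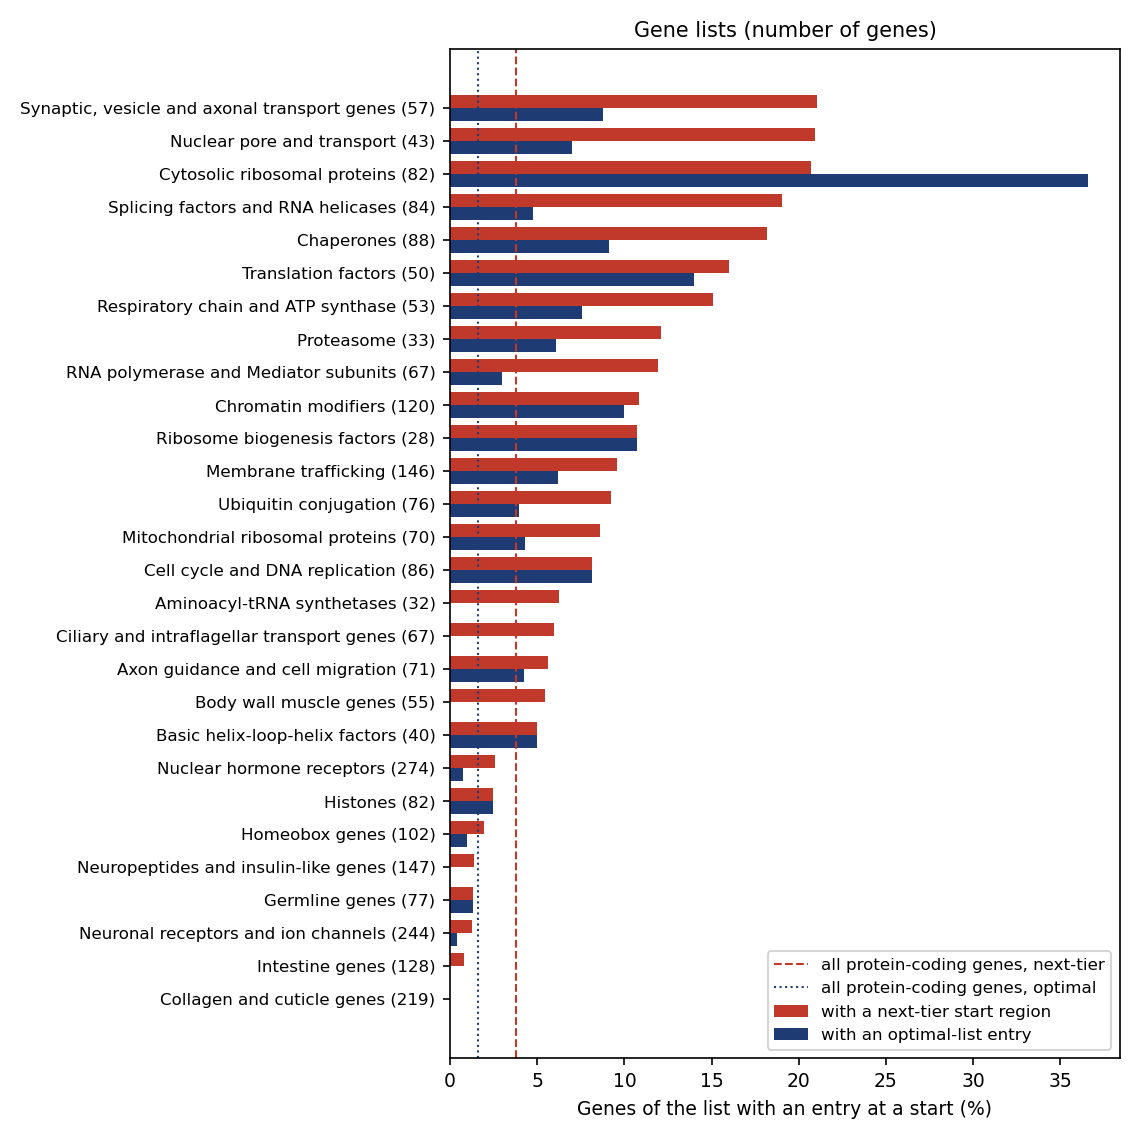
Percentage of the genes of each list (x axis) with a next-tier start region (red) or an optimal-list entry (blue) at a start, for 28 lists with the number of genes in brackets. Dashed and dotted lines mark 3.78% and 1.58% of all protein-coding genes. Cytosolic ribosomal proteins have the longest blue bar, and collagen and cuticle genes have no bar.

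The transcription, chromatin and cell cycle lists had shares above the percentage of all genes, and histones did not. RNA polymerase and Mediator subunits, a list that also holds TFIID subunits, had next-tier start regions at 8 of 67 genes (11.9%), among them taf-8, mdt-9, taf-4 and rpb-7. Chromatin modifiers had them at 13 of 120 (10.8%, 6.44 to 17.7) and optimal-list entries at 12. The histone methyltransferase gene set-4 ranked 561 in replicate 1 and 287 in replicate 2, the arginine methyltransferase gene prmt-1 ranked 352 and 1228, the acetyltransferase gene hat-1 ranked 1989 and 733, and ash-2, a subunit of histone H3 methyltransferase complexes, ranked 428 and 1225. All 4 were within the 2000 highest entries of both replicates. The cell cycle and DNA replication list had next-tier start regions at 7 of 86 genes (8.14%, 3.999 to 15.86). They include cyb-1 and orc-5, which share a region, mdf-2 and cdk-9. This list also holds genes of transcription elongation, such as cdk-9, and its share without them was not computed. Histones had them at 2 of 82 genes (2.44%), the H3.3 gene his-72 and the linker histone gene his-24.

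Energy, protein quality and trafficking lists were also above the percentage of all genes. Chaperones had next-tier start regions at 16 of 88 genes (18.2%, 11.5 to 27.5), among them the DnaJ genes dnj-22 and dnj-13, the prefoldin gene pfd-3 and the cyclophilin gene cyn-3. Respiratory chain and ATP synthase genes had them at 8 of 53 (15.1%), including nduf-6, the ATP synthase alpha subunit gene atp-1, and sdha-1 and mev-1, both of succinate dehydrogenase. The proteasome list had 4 of 33 genes (12.1%): pbs-7, rpn-5, pbs-2 and rpn-12. Ubiquitin conjugation had 7 of 76 (9.21%), including the cullin gene cul-4, ubq-2, usp-3 and ubc-25. Membrane trafficking had 14 of 146 (9.59%), including npp-20, the exocyst gene sec-3, rme-4 and the syntaxin gene syx-5.

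Neuronal lists fell on both sides of the percentage of all genes. Synaptic, vesicle and axonal transport genes had next-tier start regions at 12 of 57 (21.1%, 12.5 to 33.3) and optimal-list entries at 5. This list includes genes used in many cell types, such as those for kinesin, dynactin, tubulin and nsf-1. The dense core vesicle gene ida-1 ranked 1851 in replicate 1 and 454 in replicate 2, tba-1, an alpha tubulin gene, ranked 445 and 1295, the liprin gene syd-2 ranked 307 and 3452, and unc-16, a kinesin adaptor gene, ranked 313 and 24846. Axon guidance and cell migration genes had next-tier start regions at 4 of 71 (5.63%), namely mig-17, unc-115, unc-69 and tsp-21. The region of unc-115, an actin-binding protein gene for axon guidance, is among the aligned sequences above and ranked 260 and 1187. Ciliary genes had them at 4 of 67 (5.97%): ift-43, dyf-6, hyls-1 and klp-11. Neuronal receptors and ion channels had them at 3 of 244 genes (1.23%, 0.419 to 3.55), the metabotropic glutamate receptor gene mgl-3, the innexin gene unc-9 and the potassium channel gene twk-45. Neuropeptides and insulin-like genes had them at 2 of 147 (1.36%), flp-24 and nlp-4.

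Most transcription factor families and tissue lists were below the percentage of all genes. Basic helix-loop-helix factors and body wall muscle genes were above it, with intervals that included it. Nuclear hormone receptors had next-tier start regions at 7 of 274 genes (2.55%, 1.24 to 5.18), with nhr-142, nhr-40, nhr-34 and nhr-216 highest in pooled signal. Homeobox genes, the class to which zag-1 itself belongs, had them at 2 of 102 (1.96%), ceh-74 and vab-15. Basic helix-loop-helix factors had them at 2 of 40 (5.0%, 1.38 to 16.5), aha-1 and hlh-30. Body wall muscle genes had 3 of 55 (5.455%, 1.87 to 14.85), unc-98, unc-82 and dyb-1. The intestine list had 1 of 128, gst-27, and the germline list 1 of 77, nos-3. Collagen and cuticle genes had 0 of 219, which allows a share of up to 1.72%, although 50 of them had a pooled entry of some rank at a start.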

How the data were processed

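ZAG-1 binding was profiled by ChIP-seq in 2 biological replicates of whole L1 larvae. The authors deposited peak lists on ce11 for each replicate and for both pooled, each with 30000 entries of peaks and background called against a control, and an optimal list of 478 peaks thresholded on the irreproducible discovery rate, per the release notes. Each entry has a signal value, taken as a score of unstated formula, and a −log10 q, both as deposited. The aligner, peak caller, their versions, the threshold and the read numbers are not stated there.

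Summits were matched to protein-coding transcript starts of WBcel235 (the same build, Ensembl release 115), window 500 bp. Replicate entries were matched by an overlap of at least 1 bp. A set of 19 words was searched for in both orientations up to 100 bp from the summit. Shares carry 95% Wilson intervals, and no test was made because there is 1 group. Overlap, distance and word counting were tested on simulated data. Genes named are zag-1 and unc-119, those of the 10 regions of highest signal, up to 4 per gene list by signal, those in the 478 highest entries of both replicates, the 4 highest-signal regions with the ZEB-type E-box, and those next to a limit. The regions and lists were chosen with earlier results of these data known. Alternatives changed the window, start type, last rank, replicate, overlap rule and word window. The ce10 lists were not used here. Python 3.11.15, numpy 2.4.6, pandas 2.3.3 and scipy 1.17.1 were used.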

Additional observations from a re-analysis of the deposited data

How the results depend on the processing

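Of 45 recomputed values, 23 stayed within the 95% interval of the reported share, or within 1.5 times the reported count. With a window of 250 bp there were 402 regions and 5 ribosomal protein genes. With starts of any gene type 68.9% of summits were upstream. With rank 1000 as the last rank there were 240 regions, of which 31.3% were in the 2000 highest entries of both replicates, 32.5% held GAGAGA and 86.7% were upstream. With the same ranks taken from the list of 1 replicate in place of the pooled list, the number of regions was 518 to 562, the share in both replicates 23.1% to 24.3%, GAGAGA 22.2% to 25.8%, the ZEB-type E-box 6.76% to 6.94%, the upstream share 72.8% to 75.6% and ribosomal protein genes 11 to 17. The share in both replicates was 9.05% with summits within 100 bp, 3.88% in the 1000 highest entries and 34.7% in the 5000 highest. GAGAGA was found in 17.1% and the ZEB-type E-box in 2.26% of windows of 50 bp on each side, and in 43.9% and 16.8% of windows of 250 bp. Counting the gene of the nearest start alone gave 11 ribosomal protein genes. A wider word window holds more sequence, and a narrower start window admits fewer regions, by construction. Ranks taken from 1 replicate lie in the 2000 highest of that replicate by construction, so the share in both then asks for the other replicate alone. The cause of the other shifts was not tested. The depth of the libraries is unknown and no control was analysed here, so whether single regions are bound cannot be read from rank alone. No paired analysis was possible because there was only 1 group.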

Other observations

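Beyond protein-coding genes, 65 of the 619 next-tier start regions (10.5%) overlapped an annotated non-coding RNA gene, against 15.4% of optimal-list start entries, 7.40% of lower-ranked start entries, 16.9% of same-rank entries away from starts and 9.83% of all pooled entries. Genes of the ncRNA type made up most of these, in 52 regions (8.40%), against 14.5% of optimal-list start entries, 3.83% of lower-ranked start entries, 10.3% of same-rank entries away from starts and 4.18% of all pooled entries. Other classes were piRNA loci in 7 regions (1.13%), snoRNA genes in 4 (0.646%) and tRNA genes in 3. Among all pooled entries 4.79% overlapped piRNA loci and 0.267% snoRNA genes. No microRNA gene was overlapped, 0 of 619, which allows a share of up to 0.617%. That range includes the 0.0967% of all pooled entries. The tRNA share was 0.485% (95% Wilson interval 0.165 to 1.42) in next-tier start regions, against 0.830% of optimal-list start entries, 0.419% of lower-ranked start entries, 2.55% (1.70 to 3.79) of same-rank entries away from starts and 0.557% of all pooled entries.

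A total of 13 genes had 2 next-tier start regions and 0 had more. In 3 of them, pqn-65, pqn-70 and tbcb-1, the entries overlapped each other, with summits 224 bp, 206 bp and 214 bp apart. These names were chosen after their values were seen. The nuclear hormone receptor gene nhr-1 had regions at ranks 985 and 1662 and also an optimal-list entry, and tent-5, a terminal nucleotidyltransferase gene, had regions at ranks 1404 and 1733 and an optimal-list entry. In all, 2 next-tier start regions overlapped an optimal-list entry and 10 had an optimal-list summit within 1000 bp.

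Over all 2080 hexamers counted with their reverse complements, the differences in share between next-tier and lower-ranked start entries were led by CGTCTC at 16.1 percentage points, GAGAGA at 15.2, GAGAAA at 14.8 and GACGCA at 14.2. GAGAAA was present in 45.4% of next-tier start regions and 30.6% of lower-ranked start entries. CACACA was present in 20.4% and 9.02%. At the other end TTGAAA was present in 40.9% of next-tier start regions and 53.1% of lower-ranked start entries. These words were ordered by their own differences, so the values are descriptions.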
